A study of Mus musculus with 12 samples.

Results

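The 10 genes described here mark classes of cortical interneurons and were followed across 3 groups of mouse medial prefrontal cortex libraries. They are the peptide precursors Sst, Npy, Cort, Vip, Cck, Tac1 and Crh, the calcium-binding proteins Pvalb and Calb2, and the nitric oxide synthase Nos1. They are 10 of 55401 genes in the deposited count table, and each was found by the Ensembl identifier that carries its symbol. They were chosen by values of these same libraries: Sst and Npy had been seen to stand lower with the 5-HT6R knockdown and morphine than with scramble and morphine. That contrast is therefore given for all 10 as a description, with no test. All 10 passed the filter on low counts.

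The libraries came from male mice and were labelled as taken at 2 weeks of extinction of a conditioned place preference, a learned preference for a chamber that had been paired with a drug. Every animal group carried an adeno-associated virus (AAV). The knockdown group had 4 libraries with a virus that knocks down 5-HT6R, a serotonin receptor, and morphine. The other two groups had 4 libraries each, with a scramble virus and morphine and with the same scramble virus and saline. No knockdown group with saline was included, so the knockdown can be set against scramble only under morphine, and the sources used here do not give the promoter of the viruses, the infected cells or the strain and age of the mice. Nothing in the labels ties the libraries to different animals, and a p-value here speaks of the spread among libraries, part of which may be technical.

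GABAergic interneurons are the inhibitory cells of the cortex, and the genes described here divide them into classes. Cells born in the medial ganglionic eminence of the embryo make Sst or Pvalb. Sst cells mostly inhibit the distal dendrites of pyramidal cells, and Pvalb cells fire fast and inhibit the region around the cell body. Cells born in the caudal ganglionic eminence include the Vip class, which mainly inhibits other interneurons and partly contains Calb2. Npy and Nos1 mark neurogliaform cells and a sparse long-range class that also makes Sst, while Cort, a close relative of Sst, is made in subsets of Sst and Pvalb cells. Cck and Tac1 are less exclusive, since cortical pyramidal cells transcribe Cck and several neuron types use Tac1.

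The upstream windows of Sst, Npy and Cort are shown because these 3 genes had the largest differences below 0 between knockdown and scramble with morphine. The Sst window also holds the cAMP response element, the site at which the factor CREB was first described, and 5-HT6R is a receptor that raises cAMP. Whether cAMP or CREB had a part in these differences was not tested. Each window runs from 250 bases before to 50 bases after the RefSeq transcript start, in the direction of the gene, on build GRCm38.p6. Capitals mark TGACGTCA or, where that is absent, its TGACG core on either strand (CGTCA where the core lies on the other strand).
Sst, chr16:23890795-23891094, minus strand: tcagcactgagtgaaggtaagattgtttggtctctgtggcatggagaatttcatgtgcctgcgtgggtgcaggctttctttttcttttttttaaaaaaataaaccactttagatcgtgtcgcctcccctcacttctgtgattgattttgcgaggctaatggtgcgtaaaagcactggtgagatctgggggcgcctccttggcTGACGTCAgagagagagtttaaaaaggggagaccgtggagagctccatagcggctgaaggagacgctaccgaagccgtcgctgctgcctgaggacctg
Npy, chr6:49822460-49822759, plus strand: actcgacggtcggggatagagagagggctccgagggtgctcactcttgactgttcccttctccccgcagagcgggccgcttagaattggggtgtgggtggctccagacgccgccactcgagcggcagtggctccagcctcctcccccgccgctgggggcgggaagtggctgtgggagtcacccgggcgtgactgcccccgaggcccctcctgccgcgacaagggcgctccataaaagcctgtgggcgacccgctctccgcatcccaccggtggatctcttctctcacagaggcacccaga
Cort, chr4:149126714-149127013, minus strand: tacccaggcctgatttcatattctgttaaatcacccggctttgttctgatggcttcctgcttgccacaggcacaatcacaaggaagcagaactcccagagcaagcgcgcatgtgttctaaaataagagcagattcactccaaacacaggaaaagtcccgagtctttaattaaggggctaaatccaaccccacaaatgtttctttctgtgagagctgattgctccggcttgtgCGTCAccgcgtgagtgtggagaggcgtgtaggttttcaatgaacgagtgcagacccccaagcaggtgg

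RefSeq windows were found for 8 of the 10 genes, and Pvalb had 2 windows. TGACGTCA was present in the Sst window, where it starts 48 bases before the transcript start, and in 1.79% of all 32851 windows. The shorter TGACG, which the full element contains on both strands, was present in the windows of Sst, Cort, Vip, Cck, Tac1 and Nos1 and in 20.8% of all windows. Neither motif was found in the window of Npy or in those of Pvalb. A match describes these letters and says nothing of whether a factor binds there.

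Sst and Cort also share the end of their peptides, and the coding bases are shown because 2 genes with near-identical stretches could share reads. In the GENCODE M21 transcripts, codons 105 to 113 of Sst and 97 to 105 of Cort encode the same 9 residues in 27 bases. Of these bases 25 were identical, and capitals mark the 2 that differ.
Sst, codons 105 to 113: tgcaagaacttcttctggaaGacAttc
Cort, codons 97 to 105: tgcaagaacttcttctggaaAacCttc
The longest run that the 2 transcripts share was 21 bases, a small part of either gene, whose exons span 721 bases in Sst and 677 bases in Cort.

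On a per-length scale the 10 genes fell into a high and a low set. Levels in TPM (counts divided by exon length and scaled to the same sum in each library) averaged 610 for Cck and 595 for Sst over the 12 libraries, and their ranges of 409 to 752 and 448 to 773 TPM overlapped. Npy followed at 282 TPM, with a range of 135 to 402 TPM that stayed below every value of both. Pvalb averaged 44.3 TPM, Vip 33.0, Cort 23.5, Nos1 21.3, Calb2 18.1, Tac1 11.1 and Crh 7.98 TPM. From Pvalb down, each gene overlapped its neighbour in that order, and the highest Pvalb value, 64.8 TPM, lay below the lowest Npy value. The TPM total includes the ribosomal RNA locus CT010467.1, whose share differed between groups, so differences between groups are given on the TMM-scaled scale below.

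The groups differed in ways other than their labels. Total counts per library ran from 41483220 to 65739423. CT010467.1 took 6.46 ± 2.16% of counts with the knockdown, 2.71 ± 0.29% with scramble and morphine and 4.57 ± 0.84% with scramble and saline (SD, n = 4 each). Htr6, the targeted gene, stood at 4.49, 5.30, 3.82 and 5.46 CPM (library-scaled counts, with sizes adjusted by TMM) in knockdown replicates 1, 2, 3 and 5. It stood at 5.30, 5.16, 4.82 and 5.58 CPM in replicates 1, 3, 4 and 5 of scramble with morphine and at 5.45, 6.92, 4.35 and 7.98 CPM in replicates 2, 3, 4 and 5 of scramble with saline. Knockdown against scramble with morphine gave a log2 fold change of -0.13 (SE 0.18, edgeR adjusted p = 0.823), so this gene does not check the labels. The library labelled knockdown replicate 5 had the highest Htr6 of its group and the library labelled saline replicate 4 the lowest of its own. Slc17a7, which marks cortical excitatory neurons, stood between 1565 and 2007 CPM in the 12 libraries. Isl1, a striatal marker, was at 0 in every library but knockdown replicate 1, which had 0.0835 CPM. It was the only 1 of 14 striatal genes that failed the filter on low counts. The other 13 passed, Drd1 for example with 6.14 to 17.4 CPM, and the striatal list summed to 327 to 423 CPM.

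These 2 libraries, saline replicate 4 and knockdown replicate 5, were also at the ends of their groups for most of the 10 genes. Some library of each group must be lowest and some highest for every gene. Scramble with morphine replicate 5, for example, was lowest of its group for 4 genes and highest for 3. The library labelled saline replicate 4 had the lowest saline value for 7 of the 10 genes (Sst, Npy, Cort, Vip, Cck, Calb2 and Nos1) and the highest for Tac1 and Crh. The library labelled knockdown replicate 5 had the highest knockdown value for Npy, Cort, Vip, Calb2 and Nos1 and the lowest for Sst, Cck, Tac1, Crh and Pvalb. Its Sst and Cck were the lowest of all 12 libraries and its Vip the highest. Dlx1, an interneuron transcription factor singled out after its values were seen, had 57.5 CPM in that knockdown library, against 23.8 to 30.6 CPM in the other knockdown libraries. It had 26.1 CPM in that saline library and 53.7 to 55.6 CPM in the other saline libraries. Whether the labels of these 2 libraries were exchanged was not tested; an exchange would change each group value that holds them. The labels were kept, and results that rest on these 2 libraries are given with and without them.

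Between knockdown and scramble, both with morphine, Sst, its relative Cort and Npy stood lower, while Pvalb, Vip, Tac1 and Crh overlapped widely. Sst and Npy were lower in every knockdown library than in every scramble library with morphine, and Cort overlapped through 1 scramble library. Over all 21958 genes tested, 3.26% were lower in the knockdown without overlap and 2.59% were higher without overlap; these shares stand beside the 2 of 10 genes as background only, since Sst and Npy drew attention to this contrast. Of the 10 genes 7 had a log2 fold change below 0 (median -0.28), against 49.3% of all genes (median 0.004). In this contrast edgeR called 0% of genes (adjusted p under 0.05). Before adjustment 2643 genes had p under 0.05, while DESeq2 called 157 genes and edgeR without the library labelled knockdown replicate 5 called 373. In bulk RNA, fewer cells of a type and less RNA per cell cannot be told apart.

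Sst, whose peptide somatostatin dampens release and excitability through inhibitory receptors (mm10 chr16:23889573-23890958, minus strand), had 118, 119, 108 and 104 CPM in knockdown replicates 1, 2, 3 and 5. It had 162, 146, 153 and 132 CPM in replicates 1, 3, 4 and 5 of scramble with morphine and 147, 137, 116 and 155 CPM in replicates 2, 3, 4 and 5 of scramble with saline; values below follow the same order of replicates. Every knockdown library lay below every scramble library with morphine, and the saline group reached into the knockdown range only through the library labelled replicate 4. Means were 112 ± 7.61 CPM with the knockdown, 148 ± 12.6 CPM with scramble and morphine and 139 ± 16.8 CPM with scramble and saline (SD, n = 4 each). The log2 fold change of knockdown over scramble with morphine was -0.41 (SE 0.09), and it stayed between -0.46 and -0.36 with each library left out in turn.

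Npy (chr6:49822710-49829507, plus strand), the precursor of neuropeptide Y, showed the largest difference of the 10 genes. It had 28.1, 33.6, 38.5 and 44.8 CPM in the knockdown libraries, against 66.02, 67.6, 51.2 and 63.4 CPM in the scramble libraries with morphine. The scramble libraries with saline had 49.6, 50.6, 33.0 and 64.1 CPM. Knockdown and scramble with morphine did not overlap, and the saline group spread from the knockdown range up to that of scramble with morphine. The log2 fold change of knockdown over scramble with morphine was -0.78 (SE 0.19), with a range of -0.89 to -0.67 when each library was left out.

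Cort (chr4:149125034-149126763, minus strand), whose peptide cortistatin binds the somatostatin receptors, was counted at 163 to 418 reads per library. It had 3.71, 4.05, 2.96 and 4.26 CPM in the knockdown libraries, against 5.93, 5.93, 6.04 and 3.997 CPM in the scramble libraries with morphine and 6.72, 5.13, 4.08 and 6.35 CPM in the scramble libraries with saline. The groups overlapped because scramble with morphine replicate 5 lay within the knockdown range. The log2 fold change of knockdown over scramble with morphine was -0.55 (SE 0.19), and between -0.67 and -0.45 with each library left out.

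Nos1, Calb2 and Cck also stood lower on average, with overlapping groups. Nos1 (chr5:117781032-117958840, plus strand), which makes nitric oxide, had 66.8, 66.8, 50.6 and 85.9 CPM in the knockdown libraries, against 75.2, 75.3, 92.8 and 73.1 CPM in the scramble libraries with morphine. Its log2 fold change of -0.23 (SE 0.17) was -0.37 without the library labelled knockdown replicate 5 and -0.11 without knockdown replicate 3. Nos1 overlaps an annotated antisense gene, Gm26995, and a further model, Gm37028, and no source used here states whether counting used strand; the other 9 genes overlap no annotated gene.

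Calb2 (chr8:110137502-110168210, minus strand), which encodes the calcium buffer calretinin, had 6.53, 9.10, 7.09 and 10.5 CPM in the knockdown libraries, against 9.95, 11.6, 10.9 and 11.2 CPM in the scramble libraries with morphine. Only the library labelled knockdown replicate 5 reached the scramble range. The log2 fold change was -0.39 (SE 0.17). Cck (chr9:121489824-121495694, minus strand), the cholecystokinin precursor, had 196, 282, 234 and 170 CPM in the knockdown libraries, against 255, 289, 292 and 276 CPM in the scramble libraries with morphine. Knockdown replicate 2 alone reached into the scramble range, and the log2 fold change was -0.34 (SE 0.12).

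Vip, Pvalb, Tac1 and Crh overlapped widely. Vip (chr10:5639218-5647617, plus strand), the precursor of vasoactive intestinal peptide, had 29.2, 32.2, 30.5 and 42.2 CPM in the knockdown libraries, against 37.5, 35.9, 33.0 and 39.1 CPM in the scramble libraries with morphine. Its log2 fold change was -0.12 (SE 0.11), and -0.25 without the library labelled knockdown replicate 5, which had the highest Vip of all 12 libraries. Without knockdown replicate 1 it was -0.06.

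Pvalb (chr15:78191114-78206400, minus strand), the calcium buffer of fast-spiking cells, had 13.6, 12.3, 21.8 and 12.1 CPM in the knockdown libraries, against 11.4, 15.2, 12.04 and 15.2 CPM in the scramble libraries with morphine. Knockdown replicate 3 stood above all other libraries, and without it the log2 fold change of 0.15 (SE 0.17) turned to -0.09. Tac1 (chr6:7554879-7565834, plus strand), the precursor of substance P, had 16.2, 11.9, 11.3 and 9.97 CPM in the knockdown libraries, against 12.8, 11.2, 13.4 and 9.25 CPM in the scramble libraries with morphine. Its log2 fold change of 0.09 (SE 0.16) turned to -0.07 without knockdown replicate 1.

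Crh (chr3:19693401-19695396, minus strand), the precursor of corticotropin-releasing hormone, ran the other way from Sst and Npy. It had 3.30, 4.82, 4.47 and 2.48 CPM in the knockdown libraries, against 2.68, 2.42, 2.84 and 3.37 CPM in the scramble libraries with morphine. The library labelled knockdown replicate 5 was the second lowest of the 8, and scramble replicate 5 lay above knockdown replicate 1, so the groups overlapped. The log2 fold change was 0.41 (SE 0.22) on counts of 118 to 257 reads per library, and 0.27 without knockdown replicate 2.

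**Figure D1:**
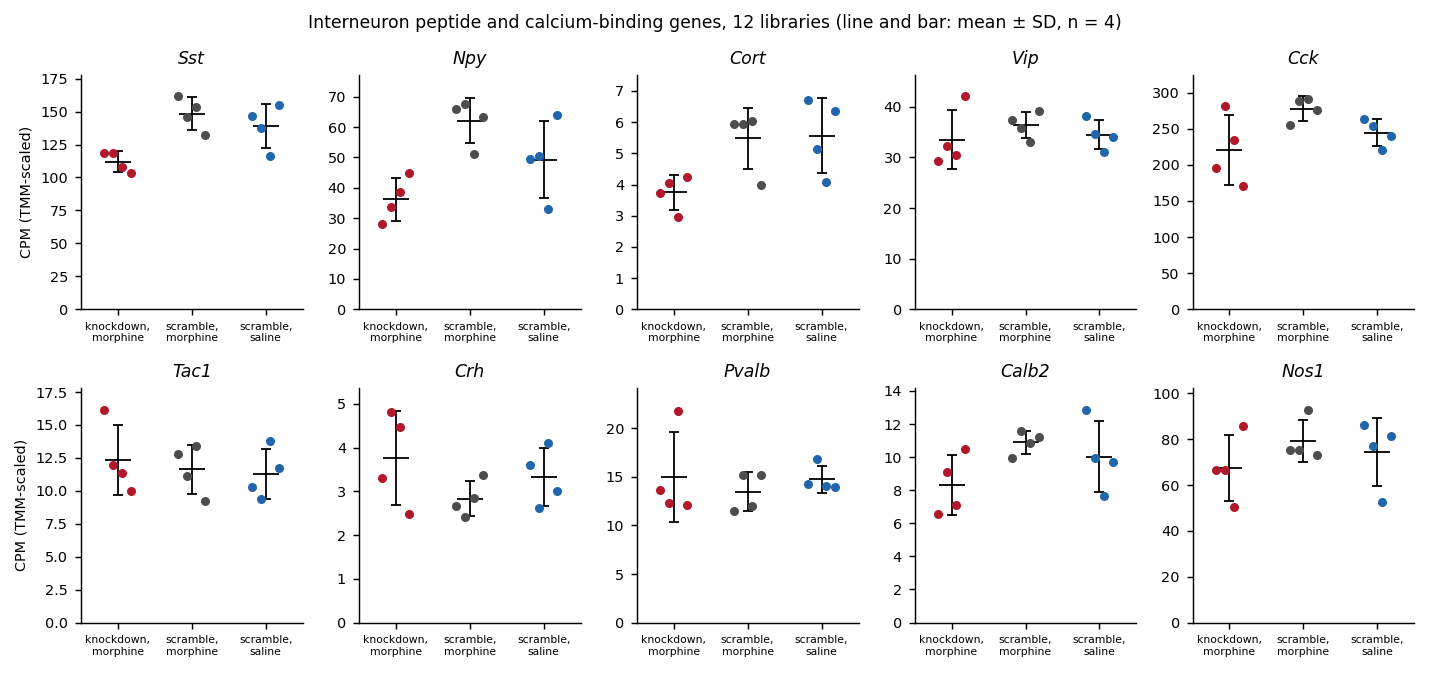
Points show the level of each gene in 1 library in CPM (TMM-scaled, linear axis from 0), with the group mean and SD (n = 4), for knockdown with morphine, scramble with morphine and scramble with saline. Sst (104 to 119 CPM) and Npy (28.1 to 44.8 CPM) in the knockdown lay below all scramble libraries with morphine (132 to 162 and 51.2 to 67.6 CPM), while Pvalb, Tac1 and Vip overlapped.

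The 3 genes that make and load GABA lay above 0 in the same contrast, and none was called. Gad1 and Gad2, which make GABA, stood at 218 ± 14.2 and 125 ± 2.32 CPM with the knockdown, against 210 ± 4.95 and 118 ± 3.90 CPM with scramble and morphine (SD, n = 4 each). Their log2 fold changes were 0.06 (SE 0.06, edgeR adjusted p = 0.733) and 0.09 (SE 0.05, adjusted p = 0.522). Slc32a1, the vesicular GABA transporter, stood at 65.6 ± 13.6 CPM with the knockdown, against 50.5 ± 4.40 CPM with scramble and morphine (log2 fold change 0.38, SE 0.13, edgeR adjusted p = 0.324). The 95% interval of its fold was 1.06 to 1.59, and the log2 difference was close in size to that of Sst, with the opposite sign. Unlike for Sst, the groups overlapped. The library labelled knockdown replicate 5 had 46.6 CPM of Slc32a1, within the 45.8 to 56.4 CPM of scramble with morphine. The other knockdown libraries had 66.1 to 77.9 CPM.

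Set against the geometric mean of these 3 genes in the same library, Sst stood at a log2 ratio of -0.11 ± 0.11 with the knockdown, 0.46 ± 0.15 with scramble and morphine and 0.31 ± 0.24 with scramble and saline (SD, n = 4 each). Npy stood at -1.76 ± 0.37 with the knockdown, -0.80 ± 0.23 with scramble and morphine and -1.22 ± 0.45 with scramble and saline. On this scale Cck, which overlapped in CPM, also separated knockdown from scramble with morphine, at 0.84 ± 0.19 and 1.37 ± 0.07. The share of all genes that separate on this scale was not counted, and Cck is also transcribed outside GABAergic cells. Knockdown minus scramble with morphine came to -0.57 for Sst, -0.96 for Npy, -0.71 for Cort, -0.58 for Calb2, -0.53 for Cck, -0.41 for Nos1 and -0.30 for Vip. Tac1, Pvalb and Crh differed by -0.09, -0.05 and 0.21. The GABA gene mean itself was 121 ± 10.8 CPM with the knockdown, 108 ± 4.07 CPM with scramble and morphine and 112 ± 4.54 CPM with scramble and saline, and scaling to it moved the median log2 fold change of all genes to -0.16, so the ratios are to be read from that level.

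**Figure D2:**
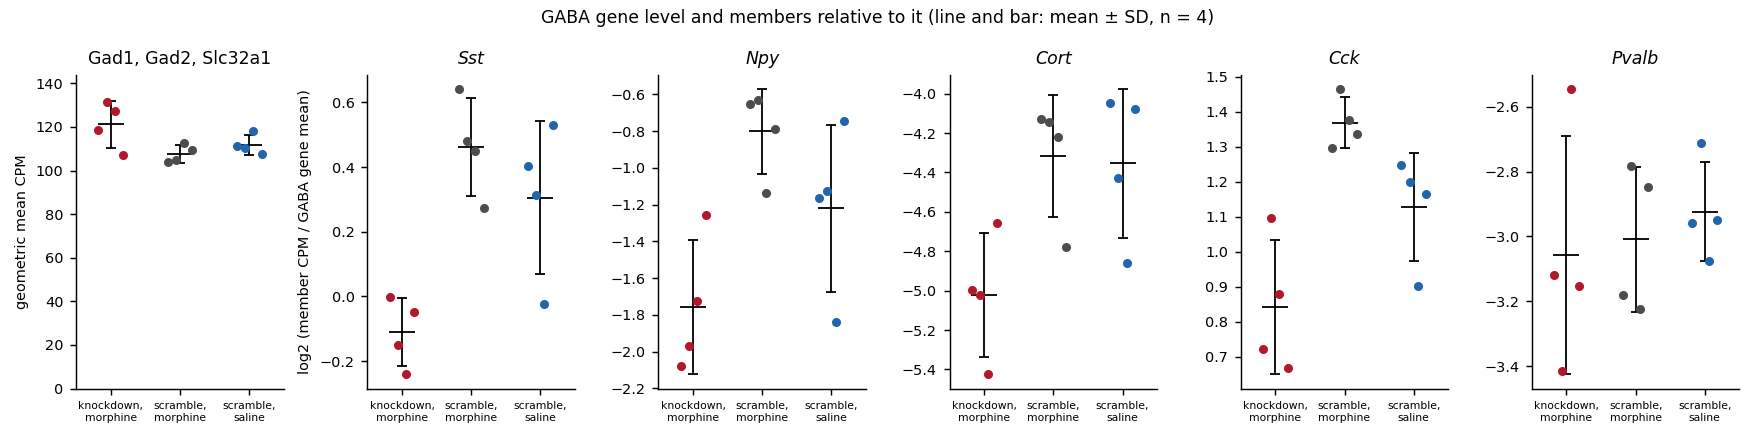
The left panel shows the geometric mean of Gad1, Gad2 and Slc32a1 in each library (CPM, axis from 0), and the other panels show log2 of a gene's CPM over that mean, with the group mean and SD (n = 4). Sst, Npy and Cck in the knockdown lay below all scramble libraries with morphine on this scale, and Pvalb overlapped. Cck overlapped in CPM, and the share of all genes that separate on this scale was not counted.

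The transcription factors and lineage genes of these cells were not called either, and they did not lie to 1 side. Lhx6, which specifies the Sst and Pvalb lineage, stood at 18.3 ± 1.38 CPM with the knockdown and 18.3 ± 0.675 CPM with scramble and morphine (log2 fold change -0.00, SE 0.09, edgeR adjusted p = 0.998). Sox6, which acts after it in that lineage, had a log2 fold change of 0.33 (SE 0.10, adjusted p = 0.289). Adarb2 and Prox1, markers of the caudal lineage, had 0.26 (SE 0.12, edgeR adjusted p = 0.414) and 0.00 (SE 0.12, adjusted p = 0.996). Among 12 general interneuron genes 7 had a log2 fold change above 0 and 5 below, and the same split held for 12 genes of the medial lineage and 12 of the caudal lineage, none of them called by edgeR. The 5 general genes below 0 were Dlx1, Dlx2, Dlx5 and Dlx6 of the Dlx family, which specifies GABAergic cells, and the noncoding RNA Dlx6os1. Dlx1 had a log2 fold change of -0.75 (SE 0.31, edgeR adjusted p = 0.380), close to that of Npy, Dlx2 -0.52 (SE 0.17, adjusted p = 0.315, the smallest p of the list) and Dlx5 -0.42 (SE 0.20, adjusted p = 0.414), while Dlx6os1 had -0.28 and Dlx6 -0.13. In the medial list Chodl, which marks the long-range Sst, Npy and Nos1 class, had the lowest value (-0.85, SE 0.47, edgeR adjusted p = 0.481) at 0.445 CPM with the knockdown and 0.819 CPM with scramble and morphine. Nxph1 of that list had -0.29 (SE 0.11, edgeR adjusted p = 0.327). Cxcl14 had the smallest p of the caudal list (-0.26, SE 0.08, adjusted p = 0.303).

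Oligodendrocyte and endothelial markers lay to 1 side in the same contrast and other lists were mixed, no gene being called, and their part in the peptide differences was not tested. All 8 oligodendrocyte genes had a log2 fold change below 0 (median -0.32), with summed levels of 1191 to 2035 CPM with the knockdown and 1837 to 2512 CPM with scramble and morphine. Of 16 excitatory neuron genes 11 lay below 0 (median -0.15), with summed levels of 5552 to 7284 CPM with the knockdown and 6070 to 6608 CPM with scramble and morphine. Of 13 striatal genes tested 7 lay below 0 (median -0.06), and their summed level was 327 to 381 CPM with the knockdown and 371 to 410 CPM with scramble and morphine. The lowest adjusted p of that list belonged to Ppp1r1b, a dopamine signalling protein (log2 fold change -0.66, SE 0.10, edgeR adjusted p = 0.115). Drd1 and Drd2, the dopamine receptors that define the 2 striatal projection types, averaged 10.1 and 1.18 CPM with the knockdown, against 12.8 and 1.12 CPM with scramble and morphine. Endothelial genes all lay above 0 (5 of 5, median 0.23), while microglial (5 of 6) and astrocyte genes (5 of 8) were mostly below 0. Oligodendrocyte precursor genes split evenly (2 of 4 below). The smallest p of these lists belonged to Opalin (log2 fold change -0.60, edgeR adjusted p = 0.349), Neurod6 (-0.44, 0.324), Tmem119 (-0.36, 0.312), Pecam1 (0.34, 0.324), Aldh1l1 (0.21, 0.363) and Pdgfra (0.20, 0.289).

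Transcript length moved with the contrast to a small extent. Genes with up to 1000 exon bases, where Sst, Npy (566 bases) and Cort fall, had a median log2 fold change of -0.05 between knockdown and scramble with morphine (247 genes, 5th percentile -0.44). Genes over 8000 bases had a median of 0.02. The CT010467.1 share ran from 4.57 to 9.38% of counts with the knockdown and from 2.38 to 3.04% with scramble and morphine. These ranges do not overlap. A fit with the share tells it from the group only by a slope taken from the spread within groups. That spread was widest with the knockdown (SD 2.16%), and the slope is carried beyond the range of either group. With CT010467.1 entered as a covariate by its share, the difference was -0.63 for Sst, -0.62 for Npy and -0.82 for Cort. The same setting turned Tac1 to -0.29 and Vip to 0.06. It gave 0.44 for Pvalb, 0.61 for Crh, -0.40 for Nos1, -0.36 for Cck and -0.24 for Calb2. The part of length and of this locus in the differences was not tested.

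Morphine against saline, both with scramble, asked what the drug left in these genes without the knockdown, and no gene was called. edgeR called 0% of all genes here and DESeq2 called 4, while 765 genes had an edgeR p under 0.05 before adjustment. All 10 genes had overlapping groups, against 1.77% of all genes that were lower and 1.55% that were higher without overlap. Of the 10, 3 had a log2 fold change below 0, against 50.5% of all genes. Npy had the largest value, at 62.1 ± 7.44 CPM with morphine and 49.3 ± 12.7 CPM with saline (log2 fold change 0.33, SE 0.18, edgeR adjusted p = 0.999). Its fold of 1.26 had a 95% interval of 0.943 to 1.68. Sst had a fold of 1.07 (95% interval 0.932 to 1.23) and Cort a fold of 0.983 (0.728 to 1.33).

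None of the other genes was called. Cck had a log2 fold change of 0.18 (SE 0.12), Calb2 of 0.12 (SE 0.17), Nos1 of 0.09 (SE 0.17), Vip of 0.08 (SE 0.11) and Tac1 of 0.04 (SE 0.16). Crh had -0.24 (SE 0.22) and Pvalb -0.13 (SE 0.17), and the edgeR adjusted p was 0.999 for each of them. Without the library labelled saline replicate 4 the log2 fold change of Npy was 0.18 and that of Sst 0.016. Of the 12 general, 12 medial and 12 caudal interneuron genes, 6, 5 and 5 lay above 0, while all 8 astrocyte genes (median 0.17) and 7 of 8 oligodendrocyte genes (median 0.10) did. This comparison shares its morphine libraries with the one that drew attention to Sst and Npy.

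Knockdown with morphine against scramble with saline differs in virus and drug at once and shares its knockdown libraries with the first comparison. Sst, Npy and Cort again had the lowest values of the 10 genes, and none passed the test with all libraries. edgeR called 3 genes, 0.0137% of those tested, none of them among the 10, and 2052 genes had p under 0.05 before adjustment. All 10 genes overlapped between these groups, against 2.16% of all genes that were lower and 2.18% that were higher without overlap. Of the 10, 7 had a log2 fold change below 0 (median -0.14), against 50.4% of all genes.

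Sst had a log2 fold change of -0.31 (SE 0.09, edgeR adjusted p = 0.339) in that comparison, a fold of 0.807 with a 95% interval of 0.704 to 0.926. Npy averaged 36.2 ± 7.13 CPM with the knockdown and 49.3 ± 12.7 CPM with scramble and saline (log2 fold change -0.44, SE 0.19, edgeR adjusted p = 0.488). Without saline replicate 5 its log2 fold change was -0.29. Cort averaged 3.75 ± 0.568 CPM with the knockdown and 5.57 ± 1.21 CPM with scramble and saline (log2 fold change -0.57, SE 0.19, edgeR adjusted p = 0.378). Each of these overlaps came through the library labelled saline replicate 4, which lay inside the knockdown range for all 3 genes.

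Without the libraries labelled saline replicate 4 and knockdown replicate 5, all 3 genes were past the threshold. The log2 fold changes were then -0.35 for Sst (edgeR adjusted p = 0.0207), -0.71 for Npy (0.0136) and -0.76 for Cort (0.0462). Nos1 (-0.41, edgeR adjusted p = 0.0527) and Calb2 (-0.52, 0.0697) did not pass. That fit called 1082 genes in all, against 3 with every library. Without saline replicate 4 alone the adjusted p was 0.167 for Sst, 0.203 for Npy and 0.229 for Cort, and without knockdown replicate 5 alone it was 0.175, 0.208 and 0.168. The pair of libraries was chosen with earlier results known and removing these extremes moves the groups apart, so these calls are no independent support.

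None of the remaining genes was called against scramble with saline in the full fit, and single libraries moved their values. Calb2 had a log2 fold change of -0.27 (SE 0.17, edgeR adjusted p = 0.651), Cck of -0.15 (SE 0.12, adjusted p = 0.752) and Nos1 of -0.14 (SE 0.17, adjusted p = 0.853). Crh had 0.17 (SE 0.22), Tac1 0.13 (SE 0.16), Pvalb 0.02 (SE 0.17) and Vip -0.04 (SE 0.11), with edgeR adjusted p from 0.860 to 0.987. Vip had a fold of 0.972 with a 95% interval of 0.822 to 1.15, and Pvalb a fold of 1.01 with an interval of 0.775 to 1.32. With each library left out in turn, Calb2 ran from -0.41 (without knockdown replicate 5) to -0.13 (without saline replicate 2) and Cck from -0.29 (without knockdown replicate 2) to -0.046 (without knockdown replicate 5). Nos1 ran from -0.28 (without knockdown replicate 5) to -0.021 (without knockdown replicate 3), and Crh from 0.035 (without knockdown replicate 2) to 0.33 (without knockdown replicate 5). Of the 12 general, 12 medial and 12 caudal interneuron genes, 7, 6 and 6 lay above 0 here, and 7 of 8 oligodendrocyte genes (median -0.25) and 11 of 16 excitatory neuron genes (median -0.13) lay below 0.

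**Figure D3:**
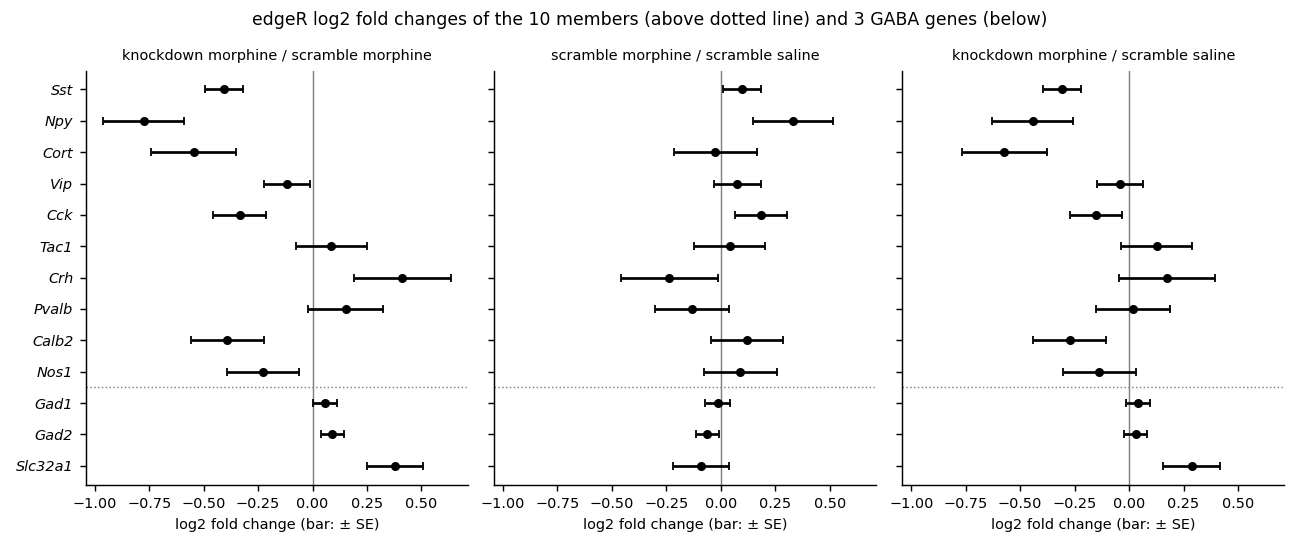
Points show edgeR log2 fold changes with SE bars for the 10 genes and, below the dotted line, 3 GABA genes in the 3 comparisons. Npy (-0.78), Cort (-0.55) and Sst (-0.41) had the lowest values for knockdown over scramble with morphine, while Gad1 (0.06), Gad2 (0.09) and Slc32a1 (0.38) lay above 0.

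Receptors for these peptides were not called in any comparison. Of 23 receptor and partner genes 21 were tested (Cckar and Npy4r were not), and between knockdown and scramble with morphine 10 lay above 0 and 11 below (median -0.00). Sstr1, Sstr2 and Sstr3, receptors of somatostatin and cortistatin, had log2 fold changes of 0.23 (SE 0.13), -0.15 (SE 0.13) and -0.05 (SE 0.13), with edgeR adjusted p of 0.499, 0.666 and 0.920. Npy1r, Npy2r and Npy5r, receptors of neuropeptide Y, had 0.15 (SE 0.12), 0.06 (SE 0.25) and -0.08 (SE 0.23). Cckbr, the main cortical cholecystokinin receptor, averaged 74.5 ± 15.7 CPM with the knockdown, against 88.0 ± 7.11 CPM with scramble and morphine (log2 fold change -0.24, SE 0.12, edgeR adjusted p = 0.431).

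Vipr1 and Vipr2, the receptors of vasoactive intestinal peptide, had log2 fold changes of 0.04 (SE 0.09) and 0.23 (SE 0.36) between knockdown and scramble with morphine. Tacr1, the substance P receptor, and Tacr3 were scarce, at 1.49 and 0.138 CPM with the knockdown, against 1.12 and 0.248 CPM with scramble and morphine. Crhr1 and the binding protein Crhbp had 0.14 (SE 0.12) and 0.04 (SE 0.14). Gucy1a1 and Gucy1b1, subunits of the guanylyl cyclase that senses nitric oxide, had -0.00 (SE 0.13) and -0.28 (SE 0.14, edgeR adjusted p = 0.447). Crhr2 had the smallest p of the list (-0.60, SE 0.27, edgeR adjusted p = 0.400). Morphine over saline put 9 of the 21 above 0, with the smallest p for Npy1r (-0.30, SE 0.12, edgeR adjusted p = 0.999). The knockdown put 7 of the 21 above scramble with saline, with the smallest p for Sstr2 (-0.33, SE 0.13, edgeR adjusted p = 0.429).

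The machinery that cuts and stores peptides gave small differences. Of 16 processing and vesicle genes 10 lay below 0 between knockdown and scramble with morphine (median -0.09), and Scg2, a granule protein, had the smallest p (log2 fold change 0.33, SE 0.10, edgeR adjusted p = 0.299). Of 15 other neuropeptide genes tested 8 lay below 0 (median -0.06). Adcyap1, the precursor of PACAP, had the smallest p among them, at 37.9 ± 10.96 CPM with the knockdown, against 24.8 ± 1.35 CPM with scramble and morphine (log2 fold change 0.61, SE 0.22, edgeR adjusted p = 0.340). Of 16 other EF-hand calcium-binding genes tested 10 lay below 0 (median -0.05), and Hpcal1 had the smallest p (0.54, SE 0.21, edgeR adjusted p = 0.350). No gene of these 3 lists was called in any comparison.

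Within groups, 1 pair of the 10 genes varied together from library to library past the threshold, a call that was lost with scaling by library totals. Deviations of log2 CPM from the group means were correlated over the 12 libraries for all 45 pairs, with exact two-sided permutation of libraries within groups. Of these pairs 24 had a positive r, 9 had an unadjusted permutation p under 0.05, and 1 passed after Benjamini-Hochberg adjustment over the 45. That pair was Cort and Nos1 (Pearson r = 0.80, exact permutation p = 0.00109, adjusted 0.0488; Spearman rho = 0.81, p = 0.000651, adjusted 0.0293). Without the 2 libraries farthest from the median of Cort, r was 0.69 over 10 libraries and the adjusted exact permutation p 0.308, so the call was lost with those libraries left out and fewer libraries in the test.

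Vip and Calb2, which are made in overlapping cells, had r = 0.80 (exact permutation p = 0.00420, adjusted 0.0944; rho = 0.71), and r was 0.71 without the 2 libraries farthest from the median of Vip. Sst and Cort had r = 0.76 (exact permutation p = 0.0175, adjusted 0.218; rho = 0.62), and Calb2 and Nos1 r = 0.74 (p = 0.0464, adjusted 0.232). Sst and Npy, which share cells, had r = 0.32 (exact permutation p = 0.446, adjusted 0.740), and 0.67 without the 2 libraries farthest from the median of Sst. The same removal gave 0.91 for Sst and Cort, and the removal for Calb2 gave 0.77 for Calb2 and Nos1. Tac1 ran against Vip (r = -0.73), Calb2 (r = -0.69) and Npy (r = -0.66), with adjusted exact permutation p of 0.218 for each. Without the 2 libraries farthest from the median of Vip, Tac1 and Npy in turn, r was -0.70 with Vip, -0.66 with Calb2 and -0.23 with Npy. The libraries labelled saline replicate 4 and knockdown replicate 5 stood at the ends of their groups for most of these genes.

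**Figure D4:**
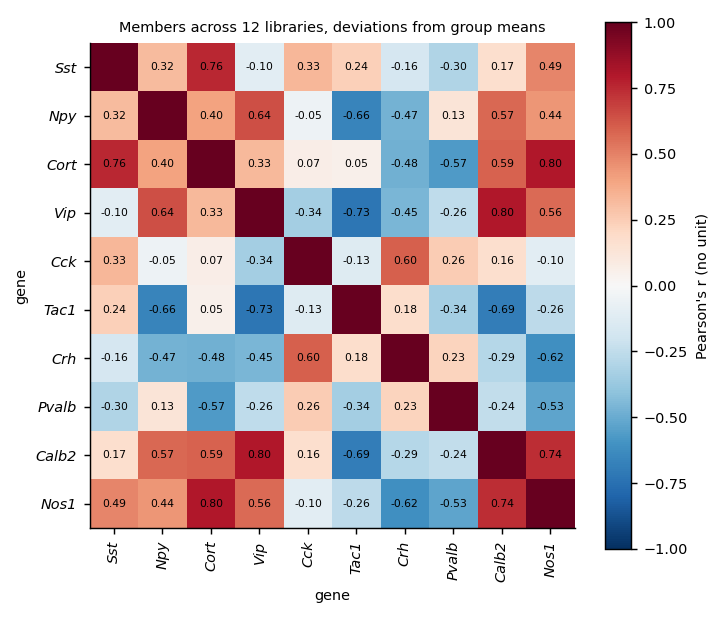
Each cell gives Pearson's r between 2 genes over the 12 libraries after removal of group means, with red for positive and blue for negative values. Cort and Nos1 and Vip and Calb2 had the highest values (0.80 each), and Vip and Tac1 the lowest (-0.73).

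With the 10 genes left out of the ranking, the genes most like Sst over the 12 libraries were none of the other interneuron genes listed above. Among 13938 protein-coding genes of at least 1 CPM on average, Pearson's r of log2 CPM with Sst was highest for Actb (0.95), Spr (0.93), 2210016F16Rik (0.92), Borcs6 (0.91) and Psmg1 (0.91). Of the genes left out, Cort had the highest r with Sst, at 0.87. For Npy it was highest for Sgcb (0.97), Slc38a7 (0.96), Tmem229a (0.94), Chmp3 (0.93) and Tmem184c (0.93). These values describe the same 12 libraries, include the differences between groups and are the highest of many, so they carry no p.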

How the data were processed

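Libraries were made from oligo(dT)-selected RNA with a dUTP-marked strand, per the labels' protocols. The authors deposited whole-number counts per gene for 12 libraries. Named in the submitters' processing notes, without roles, are the build mm10, StringTie 1.3.4d, HISAT2 2.0.4, cutadapt 1.9, edgeR and DESeq2. How reads were counted, on which annotation and with which strand setting is not given in the sources used here. Of 55401 identifiers 55141 matched a symbol, and the rest took 0.0126 to 0.0275% of counts.

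The test was edgeR 4.0.16 (R 4.3.3), robust quasi-likelihood with TMM scaling, on the 21958 genes that filterByExpr kept at a minimum of 10 counts. All 12 libraries entered 1 fit of group means, which left 9 residual degrees of freedom and a coefficient of variation between replicates of 23.2%. Benjamini-Hochberg adjustment ran over all genes, two-sided, with a threshold of 0.05. CPM use TMM-scaled library sizes, and TPM use exon lengths of GENCODE M21, which has the same assembly as mm10. Correlations and their permutations were computed with numpy 2.4.6, with ranks from scipy 1.17.1. The steps were tested on simulated counts. No 2 libraries of a group agreed within sampling noise (chi-square per gene of at least 12.7).

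The 10 genes and all lists were chosen with earlier results of these data known. Named were all 10 genes, Htr6, the GABA genes, 4 lineage factors and a set of receptors, and of each other list the genes that passed, otherwise the gene with the smallest p between knockdown and scramble with morphine; for Sst and Npy the 5 most correlated genes. Drd1, Drd2, Slc17a7, Isl1, Chodl, Nxph1, Dlx6os1 and the Dlx genes other than Dlx2 fall outside this rule and were picked with their values known. Alternatives were other scalings and filters, DESeq2 1.42.0, voom in limma 3.58.1, fits of the compared groups only, a block for replicate number, the CT010467.1 share as a covariate, and libraries left out. The grouping by exon length was added after the data were seen.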

Additional observations from a re-analysis of the deposited data

Results flagged for a closer look

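Of 30 sets of 4 libraries (10 genes in 3 groups) 4 held a library flagged by Dixon's test. In these the gap to the nearest neighbour, divided by the range of the group, exceeded the critical value. Chance flags about 1 in 20 groups. Cort had 3.997 CPM in replicate 5 of scramble with morphine, below 5.93 to 6.04 CPM in the other libraries of that group. Nos1 had 92.8 CPM in replicate 4 of scramble with morphine, above 73.1 to 75.3 CPM in the others. Pvalb had 21.8 CPM in knockdown replicate 3, above 12.1 to 13.6 CPM in the other knockdown libraries. Pvalb also had 16.9 CPM in replicate 3 of scramble with saline, above 13.9 to 14.3 CPM in the others.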

How the results depend on the processing

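For the 10 genes, 345 of 360 values with 1 library left out and 371 of 390 values under the other settings counted as unchanged. In the tested comparisons this meant the same direction and side of the threshold. Between knockdown and scramble with morphine it meant a move of less than 1 SD between libraries, so a change of sign was not counted as such. There Tac1 kept its sign in 10 of 12 fits with 1 library left out and in 11 of 13 other settings. Pvalb did so in 11 of 12 and 11 of 13, and Vip in 12 of 12 and 12 of 13. Between knockdown and scramble with morphine, which carries no test for these genes, Sst was -0.57 on the log2 scale with scaling to the GABA genes and -0.63 with the CT010467.1 share as a covariate, under which Cort was -0.82, Tac1 turned to -0.29 and Vip to 0.06. Against scramble with saline, Sst (-0.35), Npy (-0.71) and Cort (-0.76) passed only without saline replicate 4 and knockdown replicate 5. Other values changed sign. Between scramble with morphine and with saline, Cort was 0.025 with GABA scaling, 0.042 with the replicate block and 0.12 with the covariate, Vip -0.016 with the covariate, Tac1 -0.062 with the block, and Nos1 -0.0440 and -0.0439 without saline replicate 4 and either knockdown replicate 5 or 3. With the knockdown set against scramble with saline, Vip was 0.045 and Tac1 -0.080 with the covariate, and Pvalb -0.024 with library totals, -0.10 with GABA scaling and -0.25 without saline replicate 4 and knockdown replicate 3. With 1 library left out, Cort ran from -0.15 to 0.10, Tac1 from -0.041 to 0.15 and Nos1 from -0.048 to 0.17 for morphine against saline. For the knockdown against saline, Vip ran from -0.17 to 0.020, Tac1 from -0.030 to 0.24 and Pvalb from -0.22 to 0.11.

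Counts of all genes called moved more. For knockdown against scramble with morphine (0 in edgeR), 2 were called without a low-count filter, 157 by DESeq2, 1 by voom, 2 with the replicate block, 1282 without saline replicate 4 and knockdown replicate 5, 5 without saline replicate 4 and knockdown replicate 3, and 0 to 373 with 1 library left out (1 to 373 in the 5 such fits that called any, the highest without knockdown replicate 5). For morphine against saline (0 in edgeR), DESeq2 called 4, and the compared groups alone and the block 1 each. With the knockdown set against scramble with saline (3 in edgeR), 0 were called with library totals, voom, the block, the covariate, or without saline replicate 4 and knockdown replicate 3; 5 without a filter or with the compared groups alone, 147 by DESeq2, 1082 without saline replicate 4 and knockdown replicate 5, and 0 to 58 with 1 library left out (58 without knockdown replicate 5, 7 without scramble morphine replicate 4). Of the 45 correlations, 0 passed with library totals or without the 2 farthest libraries. The block changed no call of the 10 genes. Deviations of same-numbered libraries were at most weakly correlated (9 pairs, r from -0.02 to 0.13, 2 over 0.1). Differently numbered pairs ran from -0.18 to 0.12, so the highest r of any pair was same-numbered. Whether libraries were paired was not tested. The causes were not tested. Cort and Crh, at 118 to 418 reads per library, carry the widest counting error.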
